A study of Mus musculus with 12 samples.

Results

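Epcam, Cd24a, Prom1, Alcam, Cd44, Tspan8 and Anxa4 are 7 genes used to mark bile duct cells and liver progenitors, 6 of them by a protein on the cell surface. They were found by symbol among the 53700 gene identifiers of a count table, where all 7 matched 1 identifier each, and all 7 passed the filter on low counts that left 15014 genes. The cells were intrahepatic cholangiocyte organoids, spheres of bile duct epithelium grown from mouse liver, and RNA was taken at passage 5 without treatment. Each of 6 mice gave 1 culture from the hilum, where the large ducts leave the liver, and 1 from the periphery, where ducts are small. The mice were 3 wild types (WT, Jag1 +/+; mice 1221, 1223 and 1225) and 3 Ndr mice, homozygous at Jag1 (Jag1 Ndr/Ndr; animals 1219, 1220 and 1224). Ndr is a missense allele of the Notch ligand gene Jag1 that is used as a model of Alagille syndrome, in which bile ducts are too few. This made 4 groups of genotype and region with 3 libraries each. A hilar and a peripheral library share each mouse. Such cultures are meant to hold epithelium without the portal mesenchyme and vessels that present Jag1 to ducts in the liver.

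EpCAM is a homophilic adhesion protein of simple epithelia and the usual handle for sorting cholangiocytes away from hepatocytes, which lose it as they mature. CD24, CD133 (the product of Prom1) and CD44 are surface proteins by which clonogenic liver and duct progenitors have been enriched, and ALCAM (CD166) is an immunoglobulin family adhesion protein of progenitors and epithelia. Tspan8 encodes a tetraspanin, a membrane organiser that partners with integrins and EpCAM, and Anxa4 encodes a calcium-dependent membrane-binding protein enriched in secretory epithelia such as ducts. Annexin A4 binds membranes from inside the cell.

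Library totals ran from 6708822 to 16030880 counts, and Jag1, whose transcript the missense allele leaves in place, lay between 73.1 and 196 CPM (a gene's counts scaled to the size of its library). Of the 15 cholangiocyte markers listed, 14 were tested and their levels were mixed. Spp1, the osteopontin gene, ran from 1242 to 8389 CPM and Krt18, a simple keratin gene, from 1282 to 6533 CPM. Cftr, the chloride channel gene, averaged 25.7 CPM, Onecut1 9.15, Tff2 3.57 and Ggt1 1.47 CPM, all below the median of 26.1 CPM over tested genes, and the secretin receptor gene Sctr reached at most 0.12 CPM. The endothelial genes Kdr and Emcn had no count in any library, nor had Clec4f, a liver macrophage gene listed with them. The 8 genes of that list summed to at most 0.463 CPM. Among the immune markers the macrophage gene Adgre1 had no count, and the summed level ran from 10.1 to 40.3 CPM, mostly Csf1r and Cd68. Among 14 hepatocyte markers Cps1 had no count, and the sum of 544 to 5809 CPM was mostly transferrin (Trf, 373 to 5533 CPM). Of the 12 fibroblast and stellate markers, Dcn and Lum had no count, and the sum ran from 2.22 to 1975 CPM, of which Vim made up 1974 CPM in the highest library. The 6 mesothelial markers summed to 37.6 to 661 CPM, nearly all of it Msln. In bulk RNA, fewer cells that carry a transcript and less transcript per cell cannot be told apart.

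All 7 genes were abundant and their levels spread by very different amounts. Their mean CPM lay at or above the 98.5th percentile of tested genes, from 487 CPM for Alcam to 1309 CPM for Cd44, with at least 785 reads for any of them in any library. Per kilobase of exon (GENCODE M21 models, which are not the annotation of the count table), Epcam came first at 368 CPM per kilobase and Cd24a next at 331, followed by Tspan8 at 291, Cd44 and Anxa4 at 193 each, Prom1 at 94.8 and Alcam at 68.3. The ranges over libraries overlapped between all neighbours in that order, with 159 to 580 CPM per kilobase for Epcam and 254 to 441 for Cd24a. Anxa4 was the steadiest, with a coefficient of variation of 11.2% over the 12 libraries (percentile 3 among tested genes), and Tspan8 the most variable at 61.6% (percentile 85.2). The median over tested genes was 30.1%. The highest library exceeded the lowest 11.9-fold for Tspan8, 7.26-fold for Prom1 and 1.38-fold for Anxa4.

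**Figure D1:**
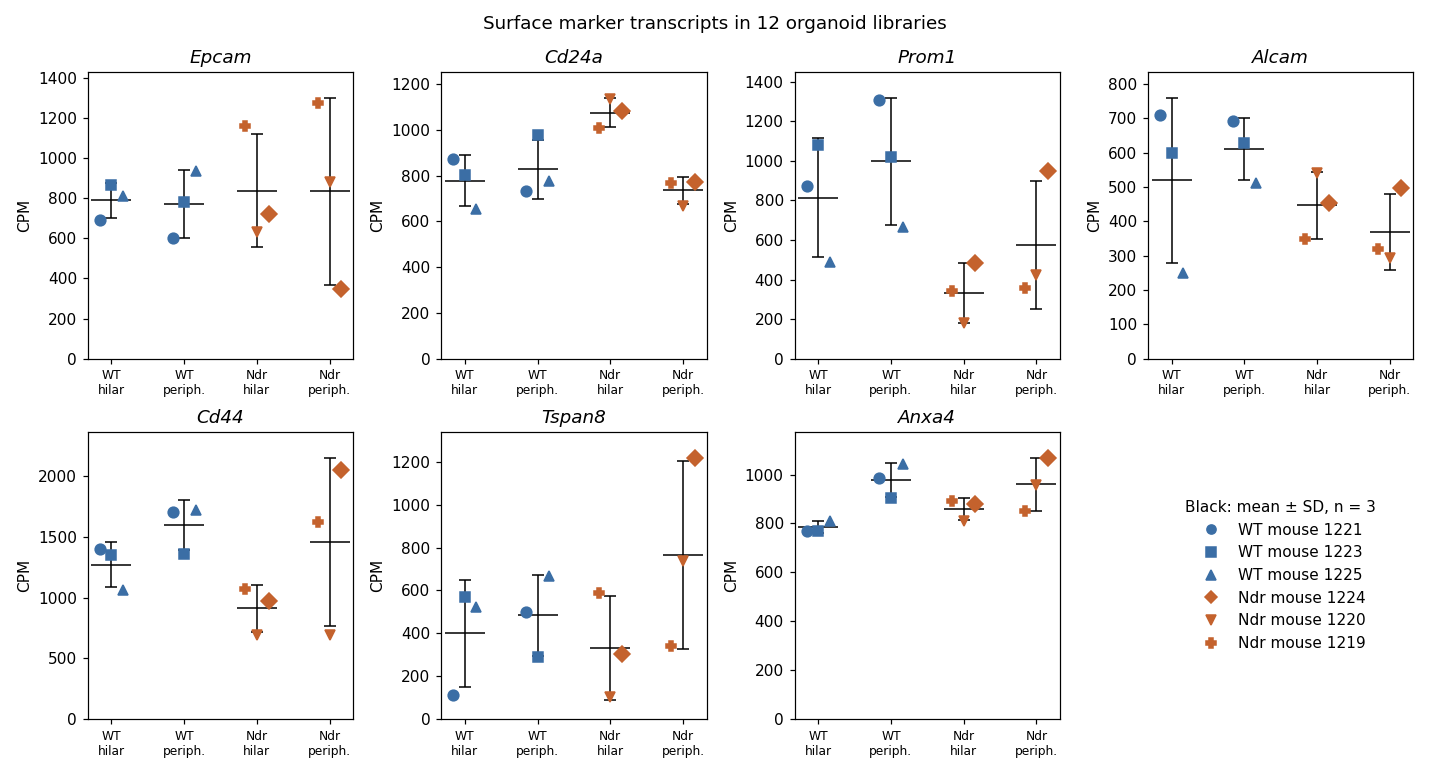
CPM (linear axis from 0) of the 7 genes in the 12 libraries, by group of genotype and region; symbols mark the mouse, and black lines give the mean ± SD of 3 cultures. Prom1 in Ndr hilar cultures, at 180 to 482 CPM, lay below the 3 WT hilar cultures, and Anxa4 stayed between 771 and 1067 CPM in every library.

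None of the 7 genes passed an adjusted p of 0.05 in any comparison. edgeR's quasi-likelihood test called 0 of 15014 genes between genotypes in hilar and in peripheral cultures, between regions in WT and in Ndr cultures, between regions over both genotypes, and for the difference between the region effects (a background of 0% in each), and 0 of 15401 genes between the 6 mouse totals, in which both libraries of a mouse were summed (0%). At an unadjusted p under 0.05 there were 982, 438, 76, 1548, 911, 451 and 834 genes, in that order, and among the 7 members 1 between genotypes in hilar cultures (Prom1) and 1 between regions in Ndr cultures (Cd24a). DESeq2 called 42, 6, 0, 72, 3, 4 and 113 genes in that order and limma-voom 0 in each of the first 6, and no member passed in either or in any other alternative tried. What follows is therefore a description of levels, with the size and error of each difference. Values of edgeR are log2 differences with their standard error (SE), and intervals are 95% intervals.

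**Figure D2:**
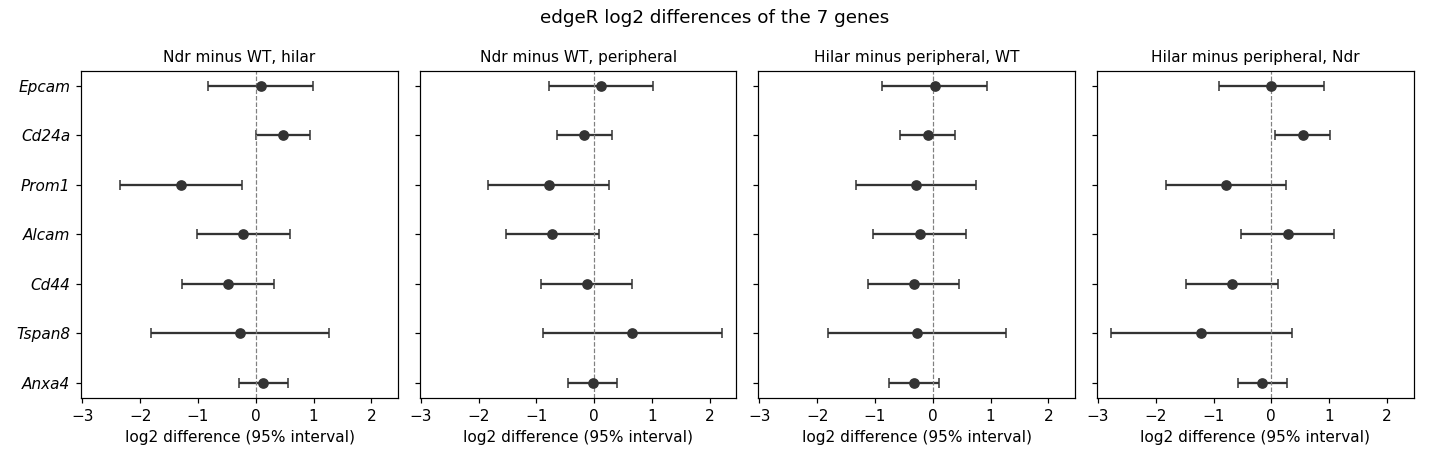
Log2 differences of the 7 genes (x axis) with 95% intervals from edgeR, in 4 panels for the genotype difference in each region and the region difference in each genotype; the dashed line marks 0. The intervals of Prom1 between genotypes in hilar cultures (-2.34 to -0.23) and of Cd24a between regions in Ndr cultures (0.07 to 1.02) lie to the side of 0 before adjustment over all genes, and Tspan8 has the widest.

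Prom1 encodes prominin-1 (CD133), a pentaspan protein of membrane protrusions. Its level was 871, 1081 and 491 CPM in WT hilar cultures of mice 1221, 1223 and 1225, and 340, 180 and 482 CPM in Ndr hilar cultures of mice 1219, 1220 and 1224. In peripheral cultures of the same mice it was 1306, 1020 and 667 CPM in WT and 357, 424 and 946 CPM in Ndr. The hilar groups did not overlap, which held for 8.75% of tested genes. The hilar WT culture of mouse 1225 and the hilar Ndr culture of mouse 1224 nearly met, however. The peripheral groups overlapped through mouse 1224. The means were 814 ± 299 and 334 ± 151 CPM in WT and Ndr hilar cultures (SD, n = 3 each; log2 difference -1.29, SE 0.482, edgeR adjusted p = 0.75). In peripheral cultures they were 998 ± 320 and 576 ± 323 CPM (log2 -0.79, SE 0.477, edgeR adjusted p = 1). Summed per mouse, Prom1 was at 902 ± 267 CPM in the WT and 471 ± 248 CPM in the Ndr animals (SD, n = 3 each; log2 -0.94, SE 0.403, edgeR adjusted p = 0.903) and overlapped, with WT mouse 1225 at 595 CPM and Ndr mouse 1224 at 757 CPM. The group means ran from WT peripheral through WT hilar and Ndr peripheral to Ndr hilar, a 2.99-fold span in which each group overlapped the next.

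The derivation dates given for the cultures differed between mice, which touches every genotype difference here. Cultures of WT mice 1221 and 1223 share a derivation date (15 June 2021) that no Ndr culture has. Those of Ndr mice 1219 and 1220 have the 17th and the 18th. Across genotypes only WT mouse 1225 and Ndr mouse 1224 share a date, the 21st. Between those mice alone, with 1 library on each side, Prom1 differed by -0.03 on the log2 scale in hilar and by 0.50 in peripheral cultures. With derivation date as a factor the hilar and peripheral differences of Prom1 were 0.02 (SE 0.416) and 0.46 (SE 0.403), which turns their direction. In limma-trend on the authors' normalized table they were 0.05 and 0.42, close to the values with the date. The steps behind that table are not recorded, so it may not be a separate check. For the mice outside that shared date, genotype and derivation date cannot be told apart. Leaving out Ndr mouse 1224 moved the total difference of Prom1 to -1.46, and leaving out the Ndr peripheral culture of mouse 1224 moved the peripheral difference to -1.36. In 5.1% of its 50-base words Prom1 matches at least 1 of 102 other gene models, so some of its reads may be shared.

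Cd24a encodes a small, heavily glycosylated protein held in the membrane by a lipid anchor. Ndr hilar cultures had the highest levels, 1010, 1137 and 1081 CPM in mice 1219, 1220 and 1224, and no library of another group reached them. The peripheral cultures of these mice were at 768, 669 and 774 CPM. WT cultures of mice 1221, 1223 and 1225 were at 874, 805 and 655 CPM in the hilum and 732, 976 and 775 CPM in the periphery. Cd24a was thus higher in the hilar culture in 3 of 3 Ndr mice and in 1 of 3 WT mice. It was also higher in all Ndr than in all WT hilar cultures. Of all tested genes, 25.6% kept 1 sign in the 3 Ndr mice. Groups did not overlap between Ndr regions in 15.4% of genes and between hilar genotypes in 8.75%. For the place of Cd24a in Ndr hilar cultures above all other libraries, no such share was computed. Between regions in Ndr cultures the means were 1076 ± 63.7 and 737 ± 59.2 CPM (SD, n = 3 each; log2 0.55, SE 0.215, edgeR adjusted p = 0.444), and in WT 778 ± 112 and 828 ± 130 CPM (log2 -0.09, SE 0.214, edgeR adjusted p = 1). The difference between these region effects was 0.63 on the log2 scale (SE 0.303, edgeR adjusted p = 0.994). Between genotypes Cd24a differed by 0.47 (SE 0.215, edgeR adjusted p = 0.75) in hilar cultures and by -0.17 (SE 0.214, edgeR adjusted p = 1) in peripheral ones, and between mice 1224 and 1225, of 1 derivation date, by 0.72 and -0.00. The summed level of 20 proliferation genes was also apart in the Ndr cultures, at 539 to 895 CPM in hilar and 1363 to 2305 CPM in peripheral ones, and its part in the Cd24a difference was not tested. In 2.75% of its 50-base words Cd24a matches the gene model Gm6212, which had at most 249 counts in a library, and how shared reads were counted is not given in the sources used here.

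Alcam, the CD166 adhesion gene, was lower in all Ndr than in all WT peripheral cultures. Peripheral cultures were at 691, 628 and 512 CPM in WT mice 1221, 1223 and 1225 and at 319, 293 and 496 CPM in Ndr mice 1219, 1220 and 1224 (means 611 ± 90.5 and 369 ± 111 CPM, SD, n = 3 each). The log2 difference was -0.73 (SE 0.368, edgeR adjusted p = 1). Hilar cultures were at 710, 598 and 251 CPM in WT and 347, 542 and 452 CPM in Ndr, and overlapped, since the WT culture of mouse 1225 was the lowest of all 12. That culture also had the highest summed level of proliferation genes, 3349 CPM against 539 to 2305 CPM in the other 11 libraries, and its part in the low Alcam level was not tested. The hilar difference was -0.22 (SE 0.366), -0.55 without WT hilar 1225 and 0.05 without WT hilar 1221. Between mice 1224 and 1225 Alcam differed by 0.85 in hilar and -0.05 in peripheral cultures. Summed per mouse, Alcam was at 574 ± 160 and 399 ± 77.1 CPM in the WT and the Ndr animals (SD, n = 3 each; log2 -0.53, SE 0.255, edgeR adjusted p = 0.903) and overlapped, and with derivation date as a factor this difference was 0.27. On the normalized table Alcam differed by 0.65 in hilar and 0.03 in peripheral cultures (limma-trend), against the direction of the raw counts. In hilar cultures 2 of the 7 genes (Cd24a and Prom1) and in peripheral cultures 1 (Alcam) had groups that did not overlap, where 8.75% and 9.02% of tested genes had such groups. In the mouse totals 0 of 7 did, against 11.3% of tested genes.

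Cd44, which encodes a receptor for hyaluronan and osteopontin, was lower in the hilar than in the peripheral culture of most mice. The hilar and peripheral levels were 1398 and 1708 CPM in WT mouse 1221, 1061 and 1724 CPM in WT mouse 1225, 1067 and 1624 CPM in Ndr mouse 1219, and 973 and 2047 CPM in Ndr mouse 1224. In WT mouse 1223 they were 1353 and 1360 CPM and in Ndr mouse 1220 they were 694 and 695 CPM, so 2 of the 6 mice showed almost no gap. The sign was the same in 6 of 6 mice, which held for 2.48% of tested genes and for no other member. Within WT alone 2 members kept 1 sign in 3 of 3 mice (Cd44 and Anxa4) and within Ndr 3 did (Cd24a, Prom1 and Cd44), where 19.6% and 25.6% of tested genes did. Over both genotypes the log2 difference was -0.50 (SE 0.255, edgeR adjusted p = 0.829), with -0.33 (SE 0.36) in WT and -0.68 (SE 0.361) in Ndr cultures. Without Ndr peripheral 1224 it was -0.34 over both and -0.35 in Ndr. The fit behind these and the other region differences had no term for mouse. With mouse as a block the Cd44 values were -0.45 over both, -0.33 in WT and -0.56 in Ndr cultures. Vim was also much higher in the peripheral culture of 3 of the 4 mice with a clear gap. It was at 1974, 561 and 290 CPM in mice 1224, 1221 and 1225 against 0.638, 51.8 and 4.77 CPM in the hilar ones. In mouse 1219 it was slightly higher, at 3.72 against 2.51 CPM. Both cultures of mice 1219, 1220 and 1223 had at most 6.02 CPM. The part of Vim-carrying cells in the Cd44 gap was not tested. The order of the group means was WT peripheral at 1598 ± 206 CPM, Ndr peripheral at 1455 ± 692 CPM, WT hilar at 1271 ± 183 CPM and Ndr hilar at 911 ± 194 CPM (SD, n = 3 each), and neighbours overlapped. The genotype difference was -0.48 (SE 0.36, edgeR adjusted p = 0.818) in hilar and -0.13 (SE 0.36, edgeR adjusted p = 1) in peripheral cultures, and Ndr mouse 1220 was lowest in both regions. The hilar value was -0.04 with derivation date as a factor and -0.06 on the normalized table.

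Prom1 and Cd44 had the highest Pearson's r among the 21 pairs of members, 0.70 for log2(CPM + 0.5) over the 12 libraries. After the group means were taken away it was 0.52, below Tspan8 with Anxa4 at 0.74, Cd24a with Alcam at 0.69 and Prom1 with Alcam at 0.55. These libraries share mice in pairs, so r is given as a description. The 250 bases before the start of both genes are shown because a Notch ligand allele is compared here and these are the members in which the letters TGGGAA were found, the core recognised by RBPJ, the DNA-binding partner of Notch. RefSeq windows on GRCm38.p6, a different build from that of the counts, were available for 6 of the 7 members, and Cd24a is named only. Capitals mark the 6 letters on either strand. The Prom1 window is the first of 2 listed starts, at chr5:44101737-44101986 on the minus strand, and the Cd44 window is at chr2:102901666-102901915 on the minus strand, each written 5′ to 3′ along the gene.
Prom1: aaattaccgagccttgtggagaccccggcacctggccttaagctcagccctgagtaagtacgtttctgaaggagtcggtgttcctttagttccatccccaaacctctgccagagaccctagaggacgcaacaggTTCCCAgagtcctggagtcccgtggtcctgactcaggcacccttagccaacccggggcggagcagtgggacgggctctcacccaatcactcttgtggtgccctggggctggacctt
Cd44: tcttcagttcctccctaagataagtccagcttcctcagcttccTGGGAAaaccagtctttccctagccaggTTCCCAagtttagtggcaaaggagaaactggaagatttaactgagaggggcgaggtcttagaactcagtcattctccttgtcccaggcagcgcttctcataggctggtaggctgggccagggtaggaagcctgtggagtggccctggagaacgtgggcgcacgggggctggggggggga
The Prom1 match begins 116 bases before the start and reads on the other strand, and Cd44 has 2 matches, 207 and 179 bases before the start, the second on the other strand. Of the 8 windows of the members, 2 held the letters, and of all 32851 windows of that length 21.6% did. The letters GGAATG, the core recognised by TEAD factors, were in 0 of the 8 windows and in 12.6% of all.

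**Figure D3:**
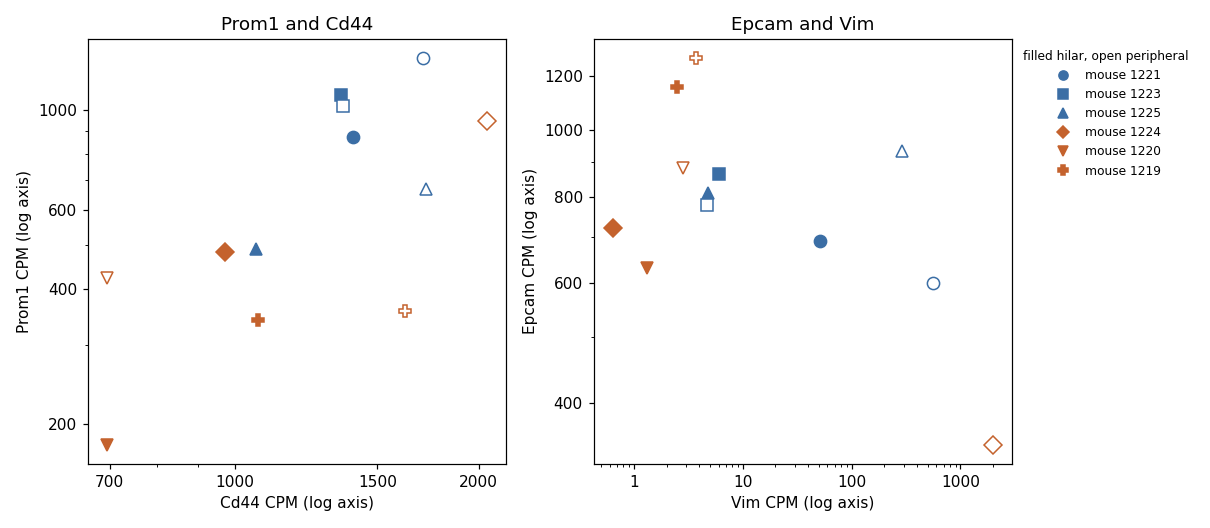
Each point is 1 of the 12 libraries (blue WT, orange Ndr, filled hilar, open peripheral, symbol by mouse), with CPM on log axes: Prom1 against Cd44 at left and Epcam against Vim at right. At left Ndr hilar 1220 is lowest in Prom1 at 180 CPM, and at right Ndr peripheral 1224 combines the lowest Epcam, 348 CPM, with the highest Vim, 1974 CPM.

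Epcam had like means in the 4 groups and wide gaps between mice. The means were 789 ± 88.7 CPM in WT hilar, 771 ± 167 in WT peripheral, 836 ± 282 in Ndr hilar and 834 ± 464 in Ndr peripheral cultures (SD, n = 3 each), a narrow span in which every group overlapped the next. Ndr mouse 1219 was highest in both regions, at 1158 and 1274 CPM, and Ndr mouse 1224 gave 721 CPM in the hilum and 348 CPM, the lowest of all, in the periphery. The remaining 8 libraries lay between 600 and 934 CPM. The genotype difference was 0.09 (interval -0.82 to 0.99, edgeR adjusted p = 0.988) in hilar and 0.11 (interval -0.79 to 1.02, edgeR adjusted p = 1) in peripheral cultures, so differences of up to 1.02 on the log2 scale lie within the error. With derivation date as a factor these were -0.69 and -0.77, and on the normalized table -0.68 and -0.76. With Ndr peripheral 1224 left out the peripheral difference was 0.48, and with Ndr peripheral 1219 left out -0.33. That culture of mouse 1224 also held the highest level of Vim, at 1974 CPM, while Dcn and Lum had no count in it. Vim is the vimentin gene of mesenchymal cells and of duct cells in culture. The mesothelial gene Wt1 was at 26 CPM there, against at most 3.87 CPM in the other 11 libraries. The 6 mesothelial markers did not follow Wt1. They summed to 460 CPM there, below WT hilar 1225 (661 CPM), Ndr peripheral 1219 (602 CPM) and WT peripheral 1225 (501 CPM). The 15 cholangiocyte markers summed to 19635 CPM there, the highest of the 12 libraries. WT peripheral 1221, with 600 CPM of Epcam, held 561 CPM of Vim, and WT peripheral 1225, with 934 CPM, held 290 CPM. The part of Vim-carrying cells in the Epcam level was not tested.

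Tspan8 varied most within groups. Hilar and peripheral levels were 114 and 498 CPM in WT mouse 1221, 568 and 288 CPM in WT mouse 1223, and 521 and 666 CPM in WT mouse 1225. In Ndr mice 1219, 1220 and 1224 they were 588 and 343, 103 and 739, and 304 and 1217 CPM. The hilar culture was lower in 4 of 6 mice, by log2 differences from -2.84 in mouse 1220 to -0.35 in mouse 1225, while mice 1219 and 1223 went the other way by 0.78 and 0.98. Over both genotypes the region difference was -0.74 (SE 0.499, edgeR adjusted p = 0.889), from -1.09 without Ndr hilar 1219 to -0.49 without Ndr peripheral 1224. With mouse as a block it was -0.96 over both genotypes, -0.49 in WT and -1.44 in Ndr cultures. The group means ran from 766 ± 438 CPM in Ndr peripheral through 484 ± 189 in WT peripheral and 401 ± 249 in WT hilar to 332 ± 244 CPM in Ndr hilar cultures (SD, n = 3 each), and neighbours overlapped. The genotype difference was -0.27 in hilar and 0.66 in peripheral cultures (SE 0.703 and 0.705, edgeR adjusted p of 0.975 and 1), each below 1 SE. The peripheral value was 0.16 without Ndr peripheral 1224 and 1.01 without Ndr peripheral 1219.

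Anxa4 had the narrowest range and the largest share of its spread between regions. Hilar cultures of WT mice 1221, 1223 and 1225 were at 771, 771 and 812 CPM and their peripheral cultures at 987, 903 and 1043 CPM, without overlap. In Ndr mice 1220 and 1224 the hilar culture was lower too, at 809 against 959 CPM and 881 against 1067 CPM, and in Ndr mouse 1219 it was slightly higher, at 892 against 852 CPM. The region difference was -0.32 (SE 0.195, edgeR adjusted p = 1) in WT and -0.16 (SE 0.195, edgeR adjusted p = 0.865) in Ndr cultures, and -0.24 over both (SE 0.138, edgeR adjusted p = 0.868). On the normalized table these were -0.66, -0.30 and -0.48 (limma-trend), and the Ndr value ran from -0.08 without Ndr peripheral 1224 to -0.24 without Ndr peripheral 1219. Anxa4 was the 1 member of 7 whose WT regions did not overlap, and Cd24a the 1 of 7 in Ndr, where 5.54% and 15.4% of tested genes had such groups. Between genotypes Anxa4 differed by 0.13 (interval -0.29 to 0.56) in hilar and by -0.03 (interval -0.45 to 0.40) in peripheral cultures.

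The 7 genes did not move as a block. Of the 21 pairs of members, 3 had r above 0.5 over the 12 libraries (Prom1 with Cd44 at 0.70, Tspan8 with Anxa4 at 0.66, Prom1 with Alcam at 0.56), Cd24a with Tspan8 had -0.59, and the median was -0.02. In the median over members, log2 differences between genotypes were -0.22 in hilar and -0.13 in peripheral cultures, where the median over all tested genes was -0.00 and 0.03. Between regions they were -0.27 in WT and -0.16 in Ndr cultures, where all tested genes had 0.03 and -0.01. Divided into orthogonal parts, the sum of squares of Epcam lay 71.8% between mice of a genotype, that of Prom1 45.5% between genotypes, that of Anxa4 58.1% between regions, that of Cd24a 39.4% in the interaction of genotype and region, and that of Tspan8 49.1% between cultures of a mouse beyond these terms. The medians over all tested genes were 29.4%, 4.76%, 5.1%, 5.01% and 39.9% for those terms. The term named for each gene is its largest, a choice that widens the gap to these medians. For Alcam and Cd44 the largest was between mice of a genotype, at 46.5% and 47.2%. The mouse and culture terms have more degrees of freedom than genotype, region or their interaction, so they take larger shares even without an effect. The genotype share of Prom1 is subject to the derivation dates given above.

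**Figure D4:**
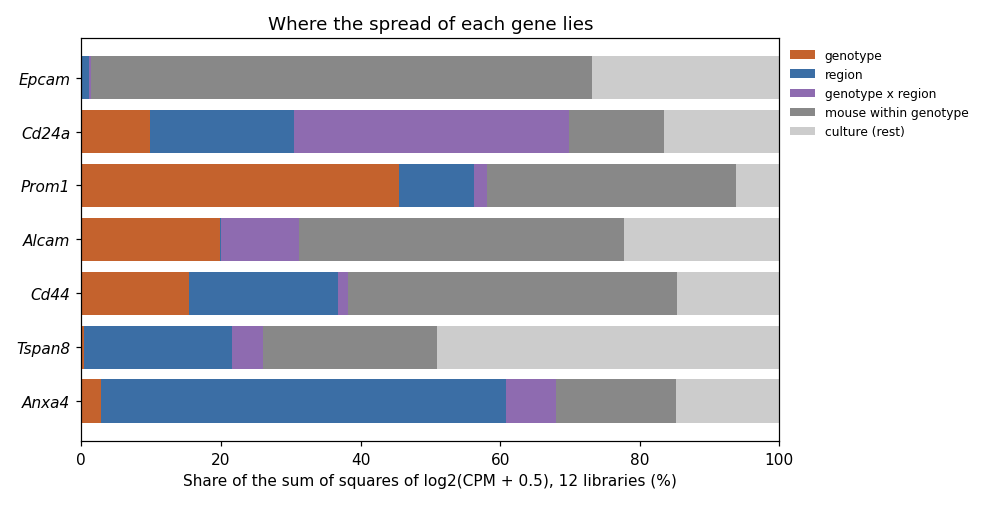
Shares (%) of the sum of squares of log2(CPM + 0.5) over 12 libraries, for each gene split into genotype, region, their interaction, mouse within genotype, and the rest between cultures of a mouse. Mouse takes 71.8% for Epcam, genotype 45.5% for Prom1 and region 58.1% for Anxa4.

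Among relatives and partners of the 7 genes, the 2 most abundant of each list averaged from 319 CPM for Muc1 to 5191 CPM for Spp1. The members averaged from 487 to 1309 CPM. Of the EpCAM partners, Cdh1, the E-cadherin gene, averaged 1272 CPM (875 to 1741) and Spint2, a protease inhibitor gene, 748 CPM (561 to 986). Of the tetraspanins Cd81 averaged 656 CPM and Cd9 395 CPM, and of the annexins Anxa2 averaged 1608 CPM (234 to 3410) and Anxa3 1138 CPM. None of the 12 EpCAM partners, 21 other tetraspanins, 14 annexin and S100 genes, 16 hyaluronan and CD44 genes, 8 protrusion genes, 13 immunoglobulin family adhesion genes and 23 other duct and progenitor surface genes tested passed in either direction in any comparison in edgeR. The 21 other tetraspanins had a median region difference of -0.10 in WT and -0.32 in Ndr cultures, with 6 and 5 of 21 positive. All tested genes had medians of 0.03 and -0.01 and 53.9% and 48.7% positive values. Without WT hilar 1225 the WT median of the tetraspanins was -0.01, with 10 of 21 positive, so 1 library makes most of that tilt. Tspan8 was at -0.27 in WT and -1.21 in Ndr cultures, and in Ndr at -0.71 without Ndr peripheral 1224 and -1.92 without Ndr hilar 1219. Among other surface genes Itga3 averaged 740 CPM and Cd14 602 CPM, and among adhesion genes Bcam 541 CPM and F11r 355 CPM. Protrusion genes were led by Ano1 at 337 CPM and Muc1 at 319 CPM, and CD44 partners by Spp1 at 5191 CPM and Itgb1 at 1238 CPM.

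The genes whose log2(CPM + 0.5) ran most like each member's over the 12 libraries were sought among named tested genes of at least 10 CPM. For Epcam these were Mapk13, a stress kinase gene (r = 0.94), Sh3yl1 (0.93) and Gpx2-ps1 (0.92). For Cd24a they were Pros1, the protein S gene (0.93), Ift57, a cilium transport gene (0.92), and Sec62 (0.92), and for Prom1 Tnfaip2 (0.92), 4930523C07Rik (0.91) and Kcnn4, a potassium channel gene (0.90). Alcam ran most like H6pd (0.95), the complement gene C3 (0.95) and Rassf4 (0.93), and Cd44 like Rhobtb1 (0.97), Tnip1 (0.95) and Asah2 (0.91). Tspan8 ran most like Impa2 (0.98), Plek2 (0.94) and Bnip3 (0.94), and Anxa4 like Egln3, a prolyl hydroxylase gene (0.86), Selenbp1 (0.85) and Mxi1 (0.84). These are the best of 10426 genes searched, which share libraries and mice in pairs, so r is a description without a p.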

How the data were processed

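Libraries of 12 organoid cultures were made with a TruSeq RNA kit, per the labels' protocols. The authors deposited raw counts per gene, with featureCounts and GRCm39 named in the submitters' processing notes, and a table of normalized values (signal); the submitters' processing notes also name DESeq2 1.34.0. Aligner, annotation release, strand setting and treatment of shared reads: not given in the sources used here. Library totals were 6708822 to 16030880 counts. Of 53700 identifiers 52093 had a symbol in GENCODE M21 (GRCm38), used for names and exon lengths only.

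The raw counts went into edgeR 4.0.16 under R 4.3.3 (robust quasi-likelihood F test after filterByExpr and TMM), with 1 coefficient per group over 12 libraries (15014 genes, 8 residual degrees of freedom) and, for genotype over both regions, on 6 mouse totals (15401 genes, 4 residual degrees of freedom). Benjamini-Hochberg adjustment ran over all genes tested, with a threshold of 0.05. CPM are on TMM-scaled library sizes. In simulated counts for the hilar genotype comparison (14781 genes), edgeR recovered 8% of genes changed 2-fold, 68% changed 4-fold and 90% changed 8-fold. It also called 8 unchanged genes. The simulated libraries were independent, without shared mice or derivation dates. The changed genes were drawn at random and not matched to the members in level or spread. These rates may therefore not hold for the real comparison. Alternatives were DESeq2 1.42.0, limma-voom (limma 3.58.1), RLE scaling, no filter, derivation date as a factor, mouse as a block, each library or mouse left out and, chosen after seeing the data, limma-trend on log2(value + 1) of the normalized table and list medians without WT hilar 1225.

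Hilar and peripheral libraries of a mouse come from 1 animal per the labels. Their deviations from the group means correlated between -0.37 and 0.44 over genes. Named genes were the 7 members, the 3 genes most like each, Jag1 and the 2 most abundant members of each list, since no list gene passed; single markers at 0 or at their extreme, and Vim, were added after their values were seen. The members and lists were chosen with earlier results of these data known.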

Additional observations from a re-analysis of the deposited data

How the results depend on the processing

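Of 658 log2 differences of the members under alternatives, 0 passed an adjusted p of 0.05, and the lowest adjusted p was 0.0738 (limma-trend on the normalized table, Cd24a between genotypes in hilar cultures). Of the 280 from alternatives that left no library out, 28 changed sign and 36 kept it but moved over 1.5-fold. On other library scalings, 56 of 56 group mean levels stayed within 1 SD. With derivation date as a factor, where the genotype difference rests on mice 1224 and 1225, the hilar values became -0.69 for Epcam, 0.02 for Prom1 and 0.70 for Alcam. The peripheral values became -0.77 for Epcam, 0.04 for Cd24a, 0.46 for Prom1, 0.06 for Alcam and 0.18 for Cd44. The mouse totals became -0.81 for Epcam, 0.35 for Prom1, 0.27 for Alcam and 0.16 for Cd44. On the deposited normalized table, hilar genotype values were -0.68 for Epcam, 0.05 for Prom1, 0.65 for Alcam and 0.26 for Tspan8, and peripheral ones -0.76 for Epcam, 0.42 for Prom1, 0.03 for Alcam and 0.20 for Cd44. There the region difference over both genotypes was -0.17 for Alcam and the interaction 0.08 for Epcam. The steps between raw and normalized values are not recorded, and the cause was not tested. For Epcam, Prom1, Alcam and Cd44 the genotype values on that table lie near those with derivation date as a factor. That of Tspan8 in hilar cultures does not, at -0.52 with the date. Mouse as a replicate block gave -0.03 for Alcam over both genotypes and 0.09 for the Epcam interaction, and called 0 genes in each region comparison, as did the unblocked fit. limma-voom gave -0.05 for Epcam between genotypes in peripheral cultures, -0.04 for Alcam over both genotypes and 0.07 for the Epcam interaction, and without the filter Epcam between regions in Ndr was -0.00. edgeR as reported called 0 genes in each comparison. DESeq2 called 42 (hilar genotype), 6 (peripheral genotype), 0 (WT region), 72 (Ndr region), 3 (region over both), 4 (interaction) and 113 (mouse totals). The normalized table gave 1446, 93, 0, 9, 4 and 2 in the first 6 of these, and mouse totals gave 5 without the filter and 7 with the date. Without 1 library the counts were 0 to 2 for the peripheral genotype comparison (2 without Ndr peripheral 1219), 0 to 7 for region in Ndr (7 without Ndr peripheral 1219) and 0 to 4 for mouse totals (4 without mouse 1219).

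Without 1 library, 105 of 378 values kept their sign but moved over 1.5-fold and 41 changed it, with these ranges. Between genotypes in hilar cultures Epcam ran from -0.22 to 0.23, Alcam from -0.55 to 0.05 and Tspan8 from -0.98 to 0.13. In peripheral cultures Epcam ran from -0.33 to 0.48, Cd44 from -0.46 to 0.18 and Anxa4 from -0.11 to 0.05. In mouse totals Epcam ran from -0.32 to 0.31, Cd44 from -0.54 to 0.02 and Anxa4 from -0.04 to 0.07. Between regions in WT Epcam ran from -0.12 to 0.19, Cd24a from -0.17 to 0.05, Alcam from -0.49 to 0.10 and Tspan8 from -0.61 to 0.20, and in Ndr Epcam from -0.37 to 0.44. Over both genotypes Epcam ran from -0.17 to 0.24 and Alcam from -0.10 to 0.20. In the interaction Epcam ran from -0.40 to 0.41 and Prom1 from -0.86 to 0.07.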

Other observations

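Of 14 tested genes for other annexins and S100 partners, 0 had a positive log2 difference between hilar and peripheral cultures in Ndr (median -1.03) and 11 in WT (median 0.12), where 48.7% and 53.9% of all tested genes were positive. None passed in edgeR. Without WT hilar 1225, 4 of 14 were positive in WT and the median was -0.15, so 1 library turns that count. Anxa4 was at -0.16 in Ndr and -0.32 in WT cultures, and the difference between it and the list was not tested. Anxa2, the most abundant of them, averaged 627 ± 381 CPM in Ndr hilar and 2304 ± 843 CPM in Ndr peripheral cultures, and 1800 ± 1431 and 1702 ± 785 CPM in the WT ones (SD, n = 3 each). Anxa3 averaged 1159 ± 311 and 1198 ± 497 CPM in Ndr hilar and peripheral cultures. The difference between the region effects had a median of -1.17 over the 14 genes, against -0.05 over all tested genes, and of -0.94 without WT hilar 1225. Proliferation genes had a median of -2.04 in the same comparison and -0.60 without WT hilar 1225, and their part in the annexin values was not tested.

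Krt19, a keratin gene of duct cells, ran from 201 CPM in Ndr hilar 1220 to 2977 CPM in Ndr peripheral 1224, the culture with the lowest Epcam.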
